A study of Homo sapiens with 18 samples.

Results

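Expression arrays of the human melanoma line A375M2 carrying short hairpin RNAs (shRNAs) against NFYA were compared with arrays of the same line carrying a GFP vector, over every gene with an annotated probe set. The comparison holds 6 of the 18 arrays of the series, 3 labelled as shNFYA and 3 as GFP, chosen by their labels alone. The other 12 arrays are A375M2 with full-length PMEL, A375M2 with shRNAs against FHL2, and the melanoma line C32 with GFP or the FHL2 shRNAs. All values are log2 signals made with GCRMA, a background correction and summary method for Affymetrix probe sets.

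Both groups are A375M2, a metastatic derivative of the melanoma line A375 that the cell line label gives as A375, transduced with lentivirus and grown in DMEM with 10% fetal bovine serum. The GFP group received a lentiviral GFP vector; the design text names an empty eGFP vector, whereas the protocols also describe a copGFP control with another selection drug, and the sample labels do not say which was used. The shNFYA group received lentiviral shRNAs directed at human NFYA, whose number and sequences the sources used here do not give. For the FHL2 shRNAs, used below as a second reference, the protocol describes a pool of 3 constructs, puromycin and sorting for high GFP. Cells of the described arms spent 15 days in selective medium and were harvested at 80% confluence in separate experiments. Whether the shNFYA arrays came from separate cultures is not stated. The p-values measure the spread between arrays within a group, pooled over the 17 arrays of all 6 groups in the fit. They may not cover the spread between shNFYA cultures.

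NF-Y is a trimer of NFYA, NFYB and NFYC that binds the CCAAT box, a short motif common in promoters. NFYB and NFYC form a dimer with a histone-like fold, and NFYA joins it and makes the contacts that read the motif. Known promoter classes with CCAAT boxes include genes of mitosis, DNA replication, histones, antigen presentation, endoplasmic reticulum (ER) chaperones and sterol synthesis.

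Promoter stretches of 7 genes are shown because their classes carry the results below; each runs 5′ to 3′ on the strand of the gene, from RefSeq on GRCh38.p14, with every CCAAT or its reverse complement ATTGG in capitals. KIF20A, CCNB2 and TOP2A act in mitosis, HLA-DPB1 in antigen presentation, HSPA5 and HERPUD1 in the ER, and H2AC6 is a histone. They lie at chr5:138179002-138179065 (+), chr15:59104896-59105112 (+), chr17:40417929-40418146 (-), chr6:33075875-33075935 (+), chr9:125241389-125241575 (-), chr16:56932009-56932079 (+) and chr6:26123984-26124124 (+), all upstream of the start site of transcription.
KIF20A: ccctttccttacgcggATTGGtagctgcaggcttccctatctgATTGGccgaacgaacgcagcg
CCNB2: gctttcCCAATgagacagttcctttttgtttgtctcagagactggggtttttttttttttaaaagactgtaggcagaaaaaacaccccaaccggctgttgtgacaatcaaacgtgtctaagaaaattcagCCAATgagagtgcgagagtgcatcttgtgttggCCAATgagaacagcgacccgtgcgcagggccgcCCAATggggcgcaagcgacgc
TOP2A: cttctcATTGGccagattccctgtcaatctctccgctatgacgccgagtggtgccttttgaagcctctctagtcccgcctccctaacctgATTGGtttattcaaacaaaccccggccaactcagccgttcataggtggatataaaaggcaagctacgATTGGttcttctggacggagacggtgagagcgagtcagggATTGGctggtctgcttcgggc
HLA-DPB1: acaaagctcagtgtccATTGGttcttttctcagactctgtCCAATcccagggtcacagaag
HSPA5: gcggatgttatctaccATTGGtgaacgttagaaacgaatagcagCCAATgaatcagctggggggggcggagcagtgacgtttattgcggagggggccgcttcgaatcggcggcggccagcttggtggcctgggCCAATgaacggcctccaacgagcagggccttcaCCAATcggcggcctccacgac
HERPUD1: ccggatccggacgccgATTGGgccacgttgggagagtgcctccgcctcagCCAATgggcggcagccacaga
H2AC6: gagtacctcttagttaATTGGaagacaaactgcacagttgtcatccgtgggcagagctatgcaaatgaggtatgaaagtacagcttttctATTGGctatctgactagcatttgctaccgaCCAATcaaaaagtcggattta

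Counting the base next to the start site as -1, the boxes of KIF20A began at -94 and -67, and those of CCNB2 at -244, -120, -87 and -54. The 4 boxes of TOP2A read ATTGG and began at -244, -160, -93 and -53. In HSPA5 the last box began at -66, and in HERPUD1 the first at -117. A match to these letters is a description of the reference sequence and not a measured binding site.

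NFYA was lower on all 4 of its probe sets. On the probe set with the highest mean the GFP arrays read 9.40, 9.65 and 9.72 and the shNFYA arrays 7.69, 7.34 and 7.54, with no overlap. The difference was -2.06 log2, 4.18-fold lower (SE 0.0941, limma adjusted p = 4.33e-13). The other probe sets differed by -2.07, -3.46 and -0.96; on the last, the shNFYA arrays all read 3.33, near the floor. NFYA read 8.95, 8.76 and 8.86 in the shFHL2 arrays, between the other groups and above every shNFYA array. NFYA was thus lower than GFP in shFHL2 too, by 0.73 log2. The second reference used below therefore has partly lowered NFYA RNA. On the probe set used for each gene, all 3 subunits passed as lower in shFHL2, with differences from -0.73 to -0.19. This did not hold on other probe sets of NFYB and NFYC. An NFYB probe set read 8.66, 8.69 and 8.63 in GFP and 9.96, 9.90 and 9.91 in shFHL2. Another read 8.70, 9.02 and 8.96 in GFP and 9.28, 9.39 and 9.43 in shFHL2. On the other NFYC probe sets the GFP and shFHL2 arrays overlapped. The NFYA difference between shNFYA and shFHL2 was -1.33 (limma adjusted p = 8.9e-10). On the other probe sets it was -1.18, -1.51 and -0.33, in the order given above.

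The other subunits moved the opposite way. NFYB, part of the dimer that NFYA joins, read 9.30, 9.25 and 9.18 in GFP and 9.86, 9.79 and 9.94 in shNFYA, a rise of 0.62 log2 (SE 0.0549, limma adjusted p = 6.28e-09). Other NFYB probe sets were 1.53 and 2.31 higher, and the remaining one lay under log2 4 in both groups. NFYC read 8.63, 8.69 and 8.61 in GFP and 9.65, 9.65 and 9.71 in shNFYA, a rise of 1.03 (SE 0.061, limma adjusted p = 2.07e-11); its 4 probe sets were 1.03 to 1.18 higher. Both were also higher in shNFYA than in shFHL2, NFYB by 0.81 and NFYC by 1.33. FHL2 itself read 11.13, 11.07 and 11.10 in the shNFYA arrays and 11.27, 11.17 and 11.18 in GFP, a difference of -0.11 (limma adjusted p = 0.48).

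**Figure D1:**
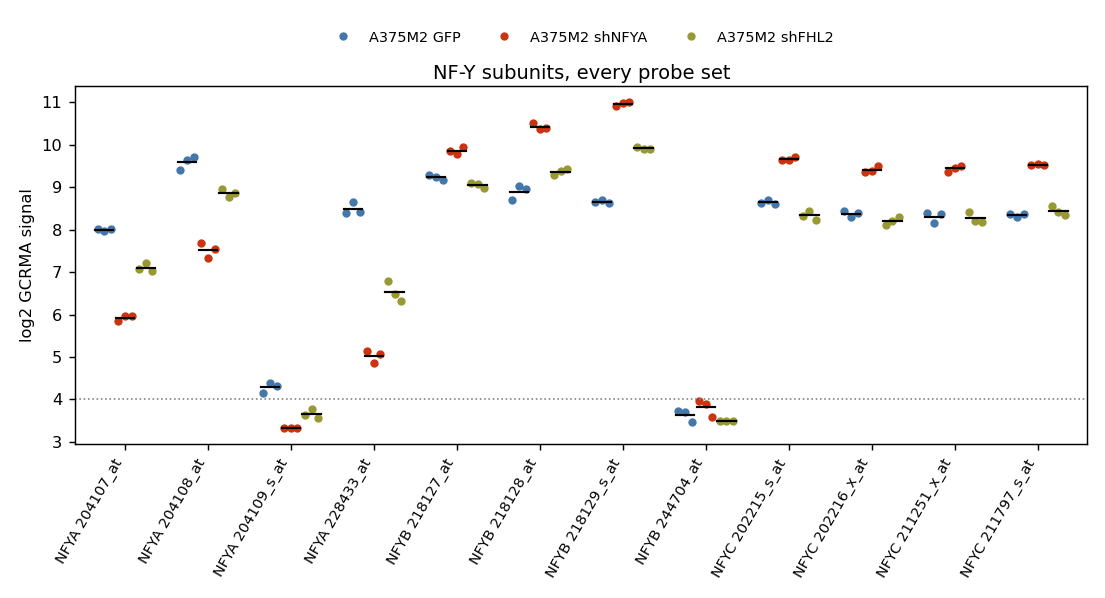
Log2 GCRMA signal (vertical axis) of every NFYA, NFYB and NFYC probe set in 3 A375M2 GFP, 3 shNFYA and 3 shFHL2 arrays; points are arrays, black bars group means, and the dotted line is log2 4. On its brightest probe set NFYA fell from a mean of 9.59 in GFP to 7.52 in shNFYA, while the 4 NFYC probe sets were 1.03 to 1.18 higher.

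Most of the transcriptome differed between these groups, which sets the measure for every count below. Of 10940 genes tested, 9501 passed at an adjusted p under 0.05, which is 86.8 percent: 4762 were higher in shNFYA (43.5 percent) and 4739 lower (43.3 percent). At 2-fold or more there were 3918 (35.8 percent), of which 1895 were higher (17.3 percent) and 2023 lower (18.5 percent). The arrays of the groups did not overlap at 87.1 percent of genes. The shFHL2 arrays differed from the same GFP arrays at 85.4 percent of genes, 41.1 percent higher and 44.3 percent lower. Between shNFYA and shFHL2, 70.1 percent passed, 38.3 percent higher and 31.8 percent lower in shNFYA, 10.4 percent differed 2-fold or more (4.02 percent higher, 6.37 percent lower), and the arrays did not overlap at 74.0 percent. The median absolute difference over genes was 0.70 log2 between shNFYA and GFP, 0.32 between shNFYA and shFHL2 and 0.14 between GFP and PMEL.

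Array measures moved with the groups. GCRMA gives undetected probe sets a shared lowest value, and shNFYA arrays shared 300 to 309 such exact values under log2 4 with each shFHL2 array and 0 with any GFP array. Among the GFP arrays, replicates 1 and 2 shared 934 and replicate 3 shared 0 with either; without it, 4674 genes were higher and 4625 lower. The 18S ribosomal probe sets read 12.52 ± 0.03 in GFP, 14.19 ± 0.11 in shNFYA and 14.18 ± 0.07 in shFHL2 (SD, n = 3). The 3′ minus 5′ difference of the actin control, a measure of RNA quality, was 0.61 ± 0.13 in GFP, 1.19 ± 0.08 in shNFYA and 1.07 ± 0.08 in shFHL2 (SD, n = 3). The same measure of the GAPDH control went the other way, at 0.08 ± 0.02, -0.02 ± 0.01 and -0.09 ± 0.02 (SD, n = 3). Which arrays were processed together is not stated, and shNFYA arrays shared 684 to 749 exact low values with each other. For shNFYA against GFP, the group and any such array set cannot be told apart. By their shared low values shNFYA and shFHL2 appear to lie in the same set. The direct difference between them is therefore given for each gene list and for most genes described.

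A gene was marked as near the floor where a group mean was under log2 4. This held for 462 genes in GFP alone, 346 in shNFYA alone and 350 in both, leaving 9782 above it in both groups. Of the 2-fold calls, 1435 higher and 1668 lower were above the floor in both groups, and 460 higher and 355 lower were not. The lowest value depends on the probe set: 171 genes read the same in all 3 shNFYA arrays to within 0.001 log2, and 23 of these lay at log2 4 or more. TTK, NPTX1 and the replication gene CDC45 are among those 23, and their levels in shNFYA are marked here as possible lowest values of their probe sets.

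**Figure D2:**
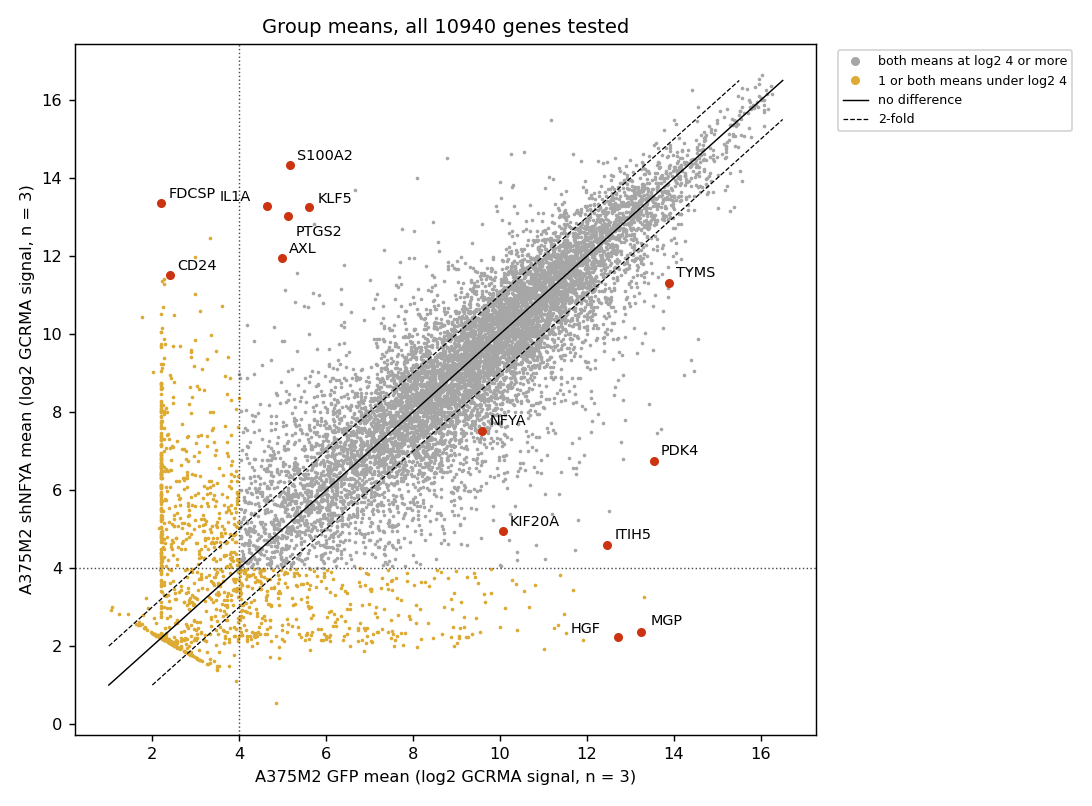
Mean log2 GCRMA signal of each of 10940 genes in A375M2 GFP (horizontal axis) and shNFYA (vertical axis), n = 3 arrays each; dotted lines mark log2 4, orange points have a group mean under it, the solid line is no difference and dashed lines are 2-fold. S100A2 and ITIH5 lie far from the solid line with both means above log2 4, whereas FDCSP and HGF each have a mean under it.

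Genes of G2 phase and mitosis were lower in shNFYA almost throughout. Of 39 listed genes 38 were tested, and 35 were lower and 3 higher, with a median difference of -1.52 log2 against 0.00 over all genes; 24 were at least 2-fold lower. KIF20A, a kinesin needed for cytokinesis, read 10.14, 10.04 and 10.00 in GFP and 4.58, 5.05 and 5.19 in shNFYA, a 34.8-fold difference (-5.12, SE 0.106, limma adjusted p = 5.09e-18). CENPE, the kinesin of the kinetochore, read 7.07, 7.33 and 7.50 in GFP and 3.84, 3.82 and 4.58 in shNFYA (-3.22), with 2 of the shNFYA arrays under log2 4. In both genes every shNFYA array lay below every GFP array. A smaller share of cells in G2 or mitosis and less of these RNAs per cell cannot be told apart in bulk RNA.

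The spindle and chromosome genes DLGAP5, CENPF, BUB1B and BUB1 followed KIF20A and CENPE in size. DLGAP5, a spindle assembly factor, read 9.06, 9.08 and 9.12 in GFP and 6.10, 6.14 and 6.36 in shNFYA, a difference of -2.89 (SE 0.0626, limma adjusted p = 9.63e-18). CENPF, a centromere protein, differed by -2.72, and the checkpoint kinases BUB1B and BUB1 by -2.32 and -2.22. TOP2A, the topoisomerase that untangles sister chromatids, read 11.42, 11.50 and 11.48 in GFP and 9.30, 9.39 and 9.29 in shNFYA, which is 4.41-fold lower. The arrays of each group lay close together beside that gap, whose SE in the fit over all groups was 0.034 (limma adjusted p = 1.33e-19). BIRC5 (survivin) differed by -2.20, NUSAP1 by -2.18 and PTTG1 (securin) by -1.98.

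Among the cyclins and the kinases of mitotic entry, CCNA2 (cyclin A2) read 9.17, 9.41 and 9.43 in GFP and 7.75, 7.52 and 7.75 in shNFYA (-1.66). CCNB2, cyclin B2, differed by -1.21 and CCNB1 by -0.53. CDK1, the kinase these cyclins activate, differed by -0.97 on its main probe set, but its 4 probe sets ran from -1.26 to 0.17. AURKB, the kinase of the chromosomal passenger complex, differed by -1.88 and AURKA by -0.60. TTK, the MPS1 checkpoint kinase, differed by -0.89 with all 3 shNFYA arrays at 6.65. The 3 genes that were higher were WEE1, the kinase that holds CDK1 inactive, by 1.90, ECT2 by 0.41 and CKS1B by 0.18. WEE1 read 9.77, 9.87 and 9.75 in GFP and 11.78, 11.58 and 11.72 in shNFYA, with no overlap, and stood 0.86 above shFHL2.

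Against shFHL2, 31 of the 38 were lower in shNFYA and 4 higher, with a median of -0.62 against 0.03 over all genes. KIF20A differed by -2.60 from shFHL2, CENPE by -1.89, DLGAP5 by -1.69, ANLN (anillin, a cytokinesis scaffold) by -1.38, TOP2A by -1.35 and BUB1 by -1.33. CCNB1 and AURKA went the other way, 0.77 and 0.62 higher in shNFYA than in shFHL2. The list also lay below GFP in the shFHL2 arrays, where 30 were lower and 5 higher with a median of -0.82. The FHL2 and NFYA comparisons use the same GFP arrays.

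**Figure D3:**
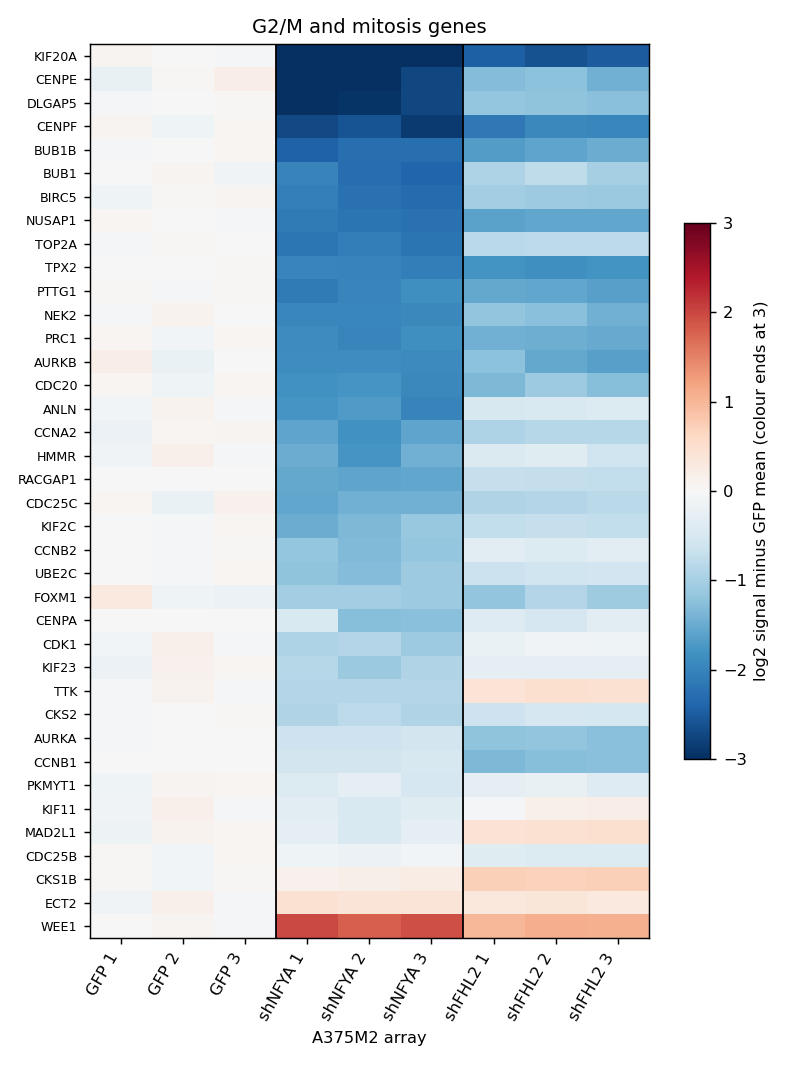
Log2 signal of 38 G2/M and mitosis genes (rows, ordered by the shNFYA minus GFP difference) in 9 A375M2 arrays (columns), each as its difference from the GFP mean; blue is lower, red higher, and colours end at 3. Rows from KIF20A (-5.12) to CDC25B (-0.13) are lower in shNFYA, and CKS1B, ECT2 and WEE1 (0.18, 0.41 and 1.90) are higher.

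Genes of the G1 to S transition and DNA replication were split against GFP but mostly lower against shFHL2. Of 34 listed, 31 were tested: 14 were lower and 10 higher than GFP, with a median of -0.07. TYMS, thymidylate synthase, read 13.88, 13.85 and 13.91 in GFP and 11.27, 11.34 and 11.34 in shNFYA, a difference of -2.56 (SE 0.0318, limma adjusted p = 5.88e-21). LIG1, the replicative DNA ligase, differed by -1.99, TK1 by -1.58, MCM7 by -1.38 and POLE2 by -1.30. CDC6 and CDT1, which load the MCM helicase, were higher by 1.96 and 1.38, and FEN1, a flap nuclease, by 1.26. CHEK1 was 2.03 higher on its main probe set, but its 4 probe sets ran from -2.08 to 2.03.

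Against shFHL2, 25 of the 31 replication genes were lower and 1 higher (FEN1, 0.17), with a median of -0.65. UHRF1, which guides maintenance DNA methylation, read 9.20, 9.31 and 9.40 in GFP, 8.48, 8.60 and 8.44 in shNFYA and 10.88, 10.83 and 10.89 in shFHL2. The shNFYA arrays were thus the lowest of the 3 groups and did not overlap either, with a difference of -2.36 from shFHL2 (SE 0.0608, limma adjusted p = 1.6e-15). MCM10 differed by -1.52 from shFHL2, POLE2 by -1.43, TYMS by -1.08 and MCM2 by -0.94. All 6 tested members of the MCM2 to MCM7 helicase were lower than in shFHL2, with differences from -0.94 to -0.29, whereas against GFP 3 were lower, 1 was higher and 2 did not pass. In the shFHL2 arrays the list stood above GFP, 21 higher and 6 lower, with a median of 0.36.

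**Figure D4:**
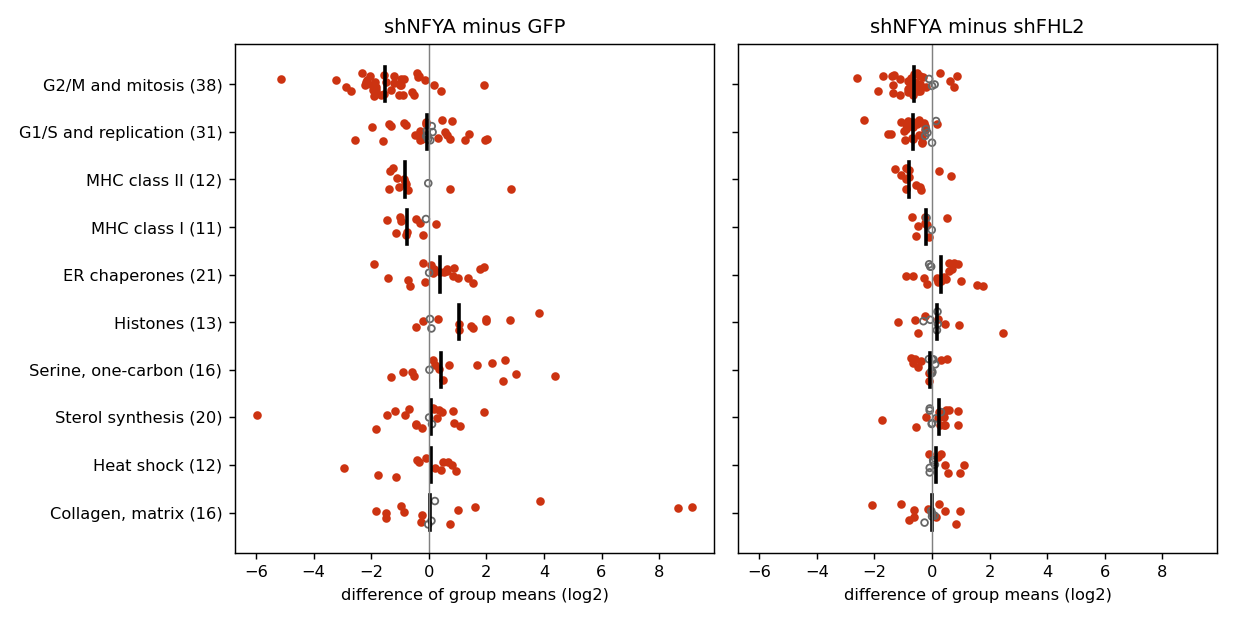
Difference of group means in log2 (horizontal axis) for the tested genes of 10 lists chosen as known CCAAT classes. Left is shNFYA minus GFP and right is shNFYA minus shFHL2, with the number of genes in brackets. Filled points passed at an adjusted p under 0.05, open points did not, and bars are medians. In the promoter search the heat shock list held a box in 25.0 percent of its genes, against 35.5 percent of the genes tested. G2/M genes lie at a median of -1.52 and -0.62, replication genes at -0.07 and -0.65, and MHC class II genes at -0.84 and -0.80.

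Genes of major histocompatibility complex (MHC) class II were lower in shNFYA than in both other groups. Of 12 tested, 9 were lower and 2 higher than GFP (median -0.84), and 10 were lower and 2 higher than shFHL2 (median -0.80). All 8 genes of the chains and their loading were lower than GFP, from -1.37 to -0.72, and lower than shFHL2, from -1.28 to -0.41. HLA-DPB1, a class II beta chain, read 12.28, 12.26 and 12.23 in GFP, 10.91, 10.90 and 10.86 in shNFYA and a mean of 11.96 in shFHL2. It was 2.58-fold lower than GFP (SE 0.0395, limma adjusted p = 5.69e-16), and the groups did not overlap.

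HLA-DRB1, another beta chain, read 13.69, 13.51 and 13.62 in GFP and 12.24, 12.35 and 12.16 in shNFYA (-1.36). HLA-DMB, a subunit of the peptide exchange factor HLA-DM, read 10.26, 10.32 and 10.21 in GFP and 9.07, 8.98 and 8.95 in shNFYA, a difference of -1.26 from GFP and of -1.28 from shFHL2. HLA-DPA1, HLA-DRA and CD74, the invariant chain, differed from GFP by -0.86, -0.72 and -0.81, while their shFHL2 means differed from GFP by 0.03, 0.09 and -0.02. HLA genes are similar in sequence, so probe sets may read more than 1 of them.

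Regulators of class II went in both directions. CIITA, the coactivator that switches class II genes on, read 6.96, 6.95 and 6.74 in GFP and 7.56, 7.52 and 7.73 in shNFYA, a rise of 0.72, and was -0.39 from shFHL2. RFX5, which binds the X box next to the CCAAT box of class II promoters, differed by -1.04 from GFP and -0.54 from shFHL2, and its partner RFXAP by 2.87 and 0.65. RFXANK, the remaining partner, did not pass against GFP (-0.02, adjusted p = 0.646).

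Of 11 class I genes tested, 9 were lower and 1 higher than GFP, with a median of -0.77; against shFHL2, 8 were lower and 1 higher, with a median of -0.21. HLA-E, a non-classical heavy chain, read 13.66, 13.54 and 13.61 in GFP and 12.11, 12.12 and 12.24 in shNFYA (-1.44), and differed from shFHL2 by -0.56. HLA-B and HLA-C differed from GFP by -0.97 and -1.14, and from shFHL2 by -0.21 and -0.26. The other heavy chains, HLA-F and HLA-G, differed from GFP by -0.80 and -1.0, although the HLA-G probe sets reached from there up to 0.00. B2M, the shared light chain, differed by -0.21, and TAP1, a subunit of the peptide transporter, did not pass (-0.10, adjusted p = 0.0808). PSMB8, an immunoproteasome subunit, differed by -0.77 from GFP and -0.50 from shFHL2.

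**Figure D5:**
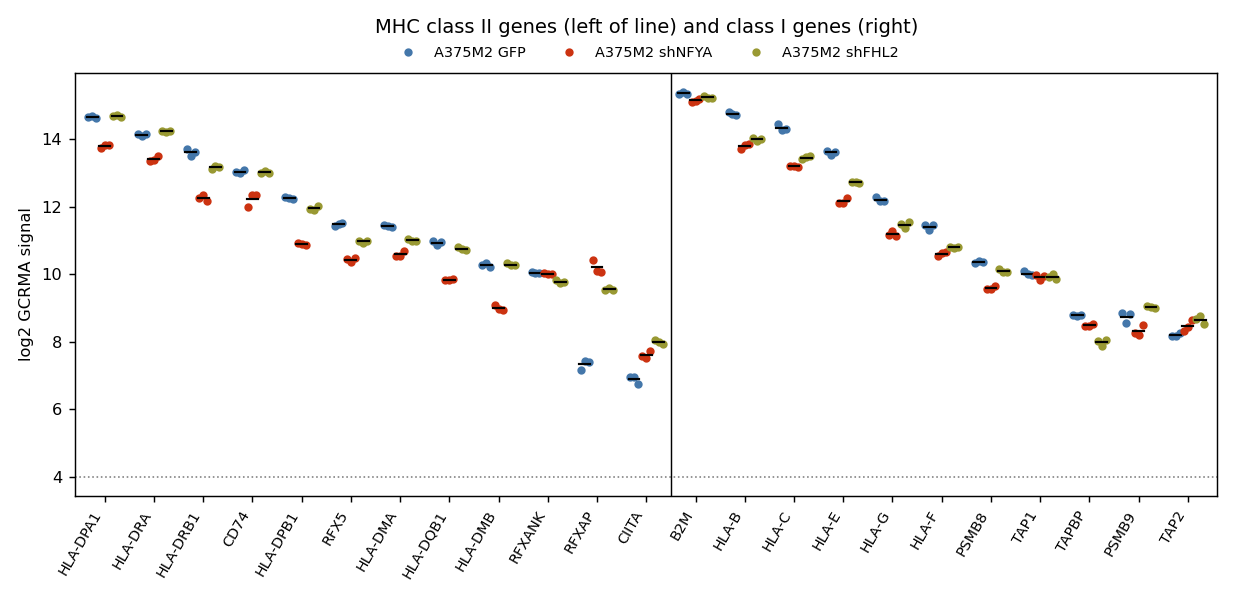
Log2 GCRMA signal (vertical axis) of 12 MHC class II genes and regulators (left of the line) and 11 class I genes (right) in 3 A375M2 GFP, 3 shNFYA and 3 shFHL2 arrays; points are arrays and black bars group means. For HLA-DPA1, HLA-DRA, CD74 and HLA-DMB the shNFYA arrays lie below GFP while shFHL2 means differ from GFP by 0.03, 0.09, -0.02 and 0.02; for HLA-B and HLA-C both shRNA groups lie below it.

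ER chaperones and folding enzymes were mostly higher. Of 21 tested, 14 were higher and 6 lower than GFP (median 0.39), and 14 were higher and 4 lower than shFHL2 (median 0.30). HERPUD1, a component of ER-associated degradation, read 11.42, 11.42 and 11.44 in GFP and 13.29, 13.33 and 13.36 in shNFYA, a 3.73-fold rise (1.90, SE 0.0382, limma adjusted p = 3.42e-18). XBP1, a transcription factor of the unfolded protein response, rose by 1.78, DNAJC3 by 1.52 and DNAJB9 by 1.35. HSPA5 (BiP), the main ER chaperone, read 14.64, 14.69 and 14.71 in GFP and 15.23, 15.17 and 15.16 in shNFYA, a rise of 0.51. SDF2L1 and CRELD2, ER stress genes, stood 1.76 and 1.57 above shFHL2 and 1.00 and 0.63 above GFP. ATF6, the ER stress sensor, differed by -1.90 on its main probe set, but its 4 probe sets ran from -1.90 to 0.97. PDIA4 and P4HB, disulfide isomerases, were lower (-1.43 and -0.71); the PDIA4 probe sets went in both directions against shFHL2.

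Promoters of this class hold longer CCAAT motifs, the ER stress elements. The ERSE, which reads CCAAT, 9 bases of any kind and CCACG, was found on either strand in 0.0806 percent of 27305 promoters and in 6 of 20 ER genes with a promoter sequence (HSPA5, HSP90B1, CALR, CANX, CRELD2 and XBP1). All 6 were higher in shNFYA than in shFHL2, with a median of 0.55; against GFP 4 were higher, HSP90B1 was lower (-0.21) and CANX did not pass (0.01, adjusted p = 0.671). Over all 12 tested genes with an ERSE, 8 were higher and 3 lower than GFP (median 0.43), and 8 were higher and 4 lower than shFHL2 (median 0.28). ERSE-II, which reads ATTGG, 1 base of any kind and CCACG, was in 0.0513 percent of promoters and in SDF2L1, HYOU1 and HERPUD1. Of all 8 tested genes with an ERSE-II, 2 were higher and 6 lower than GFP (median -0.26), and 4 were higher and 4 lower than shFHL2 (median 0.01). Both elements contain a plain box and so overlap the count of boxes; they can be read in the printed HSPA5 stretch at -66 and in HERPUD1 at -117. CALR and CANX probe sets went in both directions against GFP.

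Histone genes were mostly higher, and the canonical ones were the higher part. Of 45 listed, 13 were tested; 9 were higher and 2 lower than GFP, with a median of 1.06. H2AC6, an H2A gene, read 7.13, 7.38 and 7.05 in GFP and 11.01, 11.08 and 10.98 in shNFYA, a rise of 3.84 (SE 0.107, limma adjusted p = 3.27e-16). H2BC5 rose by 2.83, H2BC9 by 2.0 and H2BC12 by 1.06. H2BC4 and H4C8 were near the floor in GFP, at means of 3.95 and 2.56. The variant H2AZ1 and the linker H1-10 were lower (-0.21 and -0.44). Against shFHL2 the median was 0.17, with 4 higher, 4 lower and 5 not called; H2AC6 was 3.64 above GFP in that arm too. Canonical histone genes are near copies of each other, so their probe sets may be shared. Their RNAs mostly lack poly(A) tails, which the labelling method reads from.

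Sterol, heat shock and collagen genes had no common direction against GFP. Of 20 sterol genes tested, 9 were higher and 9 lower (median 0.06); DHCR7, INSIG1 and SQLE were lower (-1.44, -1.18 and -0.68) and NSDHL, EBP and ACAT2 higher (1.1, 0.87 and 0.85). TM7SF2, a sterol reductase, fell from 9.10 to 3.13, near the floor. Against shFHL2, 11 were higher and 3 lower with a median of 0.25, among them ACAT2 and NSDHL at 0.89 each. Of 12 heat shock genes, 6 were higher and 6 lower; HSPA2 read 10.20, 10.20 and 10.37 in GFP and 7.40, 7.11 and 7.46 in shNFYA (-2.94), HSPB1 differed by -1.76 and HSP90AB1 by -1.15. Against shFHL2, 6 of the heat shock genes were higher and 1 lower (median 0.15), with HSPA2 1.11 higher.

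Genes of serine and one-carbon metabolism were higher in 11 of 16 cases and lower in 4 (median 0.41). PHGDH, the first enzyme of serine synthesis, read 8.95, 9.03 and 9.11 in GFP and 11.65, 11.62 and 11.73 in shNFYA, a rise of 2.64. MTHFD2 and ALDH1L2, mitochondrial folate enzymes, rose by 2.57 and 4.38. Against shFHL2 only 2 of the 16 were higher and 7 lower, with a median of -0.07. Of 16 collagen and matrix genes, 6 were higher and 7 lower; SERPINH1, the collagen chaperone HSP47, read 1.77 in every GFP array, which is a floor value, and 10.32, 10.55 and 10.47 in shNFYA, and COL4A2 fell by 1.85. Against shFHL2, 5 of them were higher and 6 lower (median -0.02). FN1, fibronectin, differed by -0.95 from GFP and by -2.09 from shFHL2. On its probe set of largest variance FN1 did not pass against GFP (-0.03, limma adjusted p = 0.773). Of 5 other genes with a CCAAT promoter, CDKN1B (p27) and GADD45A were higher (1.09 and 0.78), TGFBR2 and SOX9 lower (-1.01 and -9.75), and RHOB did not pass (0.15, adjusted p = 0.0667). Against shFHL2 these 5 were 1 higher and 3 lower, SOX9 being near the floor in both arms.

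Genes were also grouped by the number of boxes in their promoter. CCAAT was searched on both strands in 250 bases upstream of the start. Only the first start listed for a gene was searched, here and for the ER stress elements. More than 1 was listed for 5191 gene symbols, so a gene counted with no box may hold boxes at another start. The box was held by 33.0 percent of 27305 promoters and 35.5 percent of the 9058 tested genes with a promoter. The share was 23 of 29 G2/M genes (79.3 percent), 16 of 27 replication genes (59.3), 18 of 20 ER genes (90.0), 11 of 13 histone genes (84.6), 15 of 18 sterol genes (83.3), 10 of 12 serine genes (83.3), 7 of 10 class II genes (70.0) and 3 of 12 heat shock genes (25.0). Over all genes the boxes were most often at -100 to -51, with 1731 of 5018. The median difference from GFP was 0.02 in 5840 genes with no box, 0.05 in 2035 with 1, 0.01 in 768 with 2 and -0.14 in 415 with 3 or more. Of genes with no box 42.7 percent were lower and 44.1 percent higher than GFP, and of those with 3 or more 49.4 and 35.7 percent. In the shFHL2 arrays the latter shares were 50.1 and 34.7 percent. Against shFHL2 the medians were 0.05, 0.02, 0.00 and 0.04 in the same order of box number. The shares lower in shNFYA were 29.8, 33.6, 36.3 and 34.0 percent, and at 2-fold 5.36, 6.34, 8.85 and 4.82 percent. The shares higher in shNFYA were 39.6, 39.0, 35.8 and 40.0 percent, and at 2-fold 3.84, 4.13, 3.78 and 2.65 percent. Within the G2/M list, 6 genes with no box, CENPE, BUB1B and ANLN among them, had a median of -1.65 against GFP. The 7 with 1 box had -0.97 and the 16 with 2 or more -1.89. Against shFHL2 these medians were -0.68, -0.66 and -0.63. TYMS also had no box in this window.

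Of the 10 largest rises with both groups above the floor, S100A2, a calcium-binding protein, led with 5.11, 5.03 and 5.38 in GFP and 14.32, 14.26 and 14.38 in shNFYA, a rise of 9.15 (SE 0.114, limma adjusted p = 6e-21). PTGS2, the inducible cyclooxygenase, rose from a mean of 5.13 to 13.03 (7.90). IL1A, the cytokine interleukin 1 alpha, rose by 8.65, KLF5, a zinc finger factor of epithelia, by 7.66, ACP3 by 7.10, PTX3, a soluble pattern receptor, by 7.02 and AXL, a receptor kinase, by 6.96. LINC00973, TAGLN3 and RBM47 completed the 10, at 6.21, 6.07 and 6.05. A GFP array of RBM47 read 3.96, under log2 4. Of these 10, AXL alone was not higher than in shFHL2 at the test (-0.33, adjusted p = 0.124); ACP3 stood 3.45, PTGS2 2.25 and S100A2 2.23 above it.

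The 10 largest falls above the floor began with ITIH5, a hyaluronan-binding protein of the matrix, which read 12.55, 12.47 and 12.38 in GFP and 4.76, 4.84 and 4.19 in shNFYA (-7.87). PDK4, a kinase that inhibits pyruvate dehydrogenase, read 13.43, 13.59 and 13.58 in GFP and 6.71, 6.99 and 6.55 in shNFYA (-6.78, SE 0.0832, limma adjusted p = 4.98e-21), and differed from shFHL2 by -3.63. ADCY1, an adenylate cyclase, differed by -7.27, PCDH7 by -7.04, the protease CTSK by -6.82, GASK1B by -6.55, NPTX1 by -6.23, DAAM2 by -6.18, SERPINF1 by -6.16 and HMCN1 by -6.14. NPTX1 read 4.59 in all 3 shNFYA arrays. CTSK read 4.10, 3.89 and 4.67 and DAAM2 3.68, 4.46 and 4.46 in shNFYA, each with an array under log2 4. With such values set to 4 they differed by -6.78 and -6.07. SERPINF1 was 0.98 higher in shNFYA than in shFHL2, and CTSK and HMCN1 were lower (-3.67 and -3.94). ADCY1 was near the floor in shFHL2, at a mean of 2.45, so its difference there, 0.45 with values under log2 4 set to 4, has no measured size.

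Larger differences were near the floor on one side, where their size depends on the lowest value. FDCSP, a secreted peptide, read 2.21, 2.21 and 2.20 in GFP and 13.27, 13.47 and 13.35 in shNFYA, a difference of 11.16, or 9.36 with values under log2 4 set to 4. CD24, a surface glycoprotein, read 2.35, 2.35 and 2.49 in GFP and 11.46, 11.57 and 11.50 in shNFYA (9.12, or 7.51 so floored). COL6A3, MMP1 and CHMP4C also rose from under log2 4, by 9.16, 9.15 and 9.14. MGP, an inhibitor of calcification, read 13.32, 13.12 and 13.31 in GFP and 2.16, 2.66 and 2.22 in shNFYA (-10.90, or -9.25 floored). HGF, the ligand of MET, read 2.24 in every shNFYA and every shFHL2 array against a GFP mean of 12.71. ENPP2 (autotaxin), SOX9 and ABCA8 fell to means of 3.26, 2.16 and 2.33.

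FDCSP and CD24 set the NFYA arm apart from the FHL2 arm as well. FDCSP read 5.79, 5.85 and 6.08 in shFHL2 and CD24 3.79, 3.76 and 3.10, so shNFYA was 7.46 higher for FDCSP (limma adjusted p = 1.67e-19). The shFHL2 arrays lay under log2 4 for CD24, whose difference was 7.51 with such values set to 4. ENPP2 was near the floor in shNFYA and differed by -4.87 so floored from its shFHL2 mean of 8.87. COL6A3 did not pass between the arms (0.09, adjusted p = 0.323), and SOX9 was near the floor in both.

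Among genes above the floor in all 3 groups, the largest difference from shFHL2 was FHL2, 3.93 higher in shNFYA, with the shFHL2 arrays being the ones labelled with FHL2 shRNAs. PNLIPRP3, a pancreatic lipase relative, followed at 3.56, the chemokine CCL20 at 3.48, ACP3 at 3.45 and ACAN (aggrecan) at 3.09. TCN1, L1CAM and OTUB2 were 2.55, 2.36 and 2.35 higher. ACAN was below GFP in both arms, reading 10.96, 10.78 and 10.84 in GFP, 9.05, 9.33 and 9.24 in shNFYA and 6.12, 6.30 and 5.91 in shFHL2. On the lower side PAGE1 differed by -5.49, HMCN1 by -3.94, the homeobox gene MEOX2 by -3.91, HBE1 by -3.85, CTSK by -3.67, FST (follistatin) by -3.65, PDK4 by -3.63 and MRGPRX3 by -3.59. PAGE1, HBE1 and FST were near GFP in shNFYA (0.47, -0.17 and -0.06), and their high values lay in shFHL2.

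Inflammatory genes of the NF-kappaB list were higher in 13 of 14 cases and lower in 0 (TNFAIP3 the smallest at 0.18, ICAM1 not passing at 0.10), with a median of 4.35. CXCL8, the neutrophil chemokine interleukin 8, read 10.99, 11.37 and 11.16 in GFP and 15.75, 15.43 and 15.28 in shNFYA, a rise of 4.31. IL1B was near the floor in GFP, at 3.02, 2.83 and 3.09, and read 9.81, 9.77 and 9.95 in shNFYA. CXCL1, CXCL2 and CXCL3 rose by 3.77, 3.04 and 5.37, and NFKBIA, the NF-kappaB inhibitor, by 1.84. Against shFHL2, 13 were higher and 1 lower (IL24, -1.21), with a median of 1.17; IL1B stood 3.30, CCL20 3.48 and CXCL1 2.08 above that arm.

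Genes of the ATF4 amino acid response rose in all 14 cases against GFP, with a median of 2.19, but not against shFHL2, where 6 were higher and 5 lower with a median of 0.01. ASNS, asparagine synthetase, read 10.34, 10.24 and 10.33 in GFP and 13.77, 13.82 and 13.86 in shNFYA (3.51), and -0.31 from shFHL2. ATF4 itself rose by 1.87 and did not differ from shFHL2 at the test (-0.07, adjusted p = 0.139). VLDLR and CHAC1 were higher than in shFHL2, by 1.39 and 1.05; CHAC1 was near the floor in GFP.

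Pigment cell genes were lower in 13 of 15 cases and higher in 1, with a median of -2.19. MITF, the master regulator of melanocytes, read 14.20, 14.31 and 14.20 in GFP and 9.06, 8.90 and 8.90 in shNFYA (-5.28, SE 0.0527, limma adjusted p = 3.97e-22), and GPNMB fell by 5.40. PAX3, which acts upstream of MITF, read 10.01, 10.17 and 10.19 in GFP, 8.07, 7.82 and 7.92 in shNFYA and a mean of 9.65 in shFHL2. It was thus lower than in both groups (-2.19 and -1.71). MYO5A, the motor of melanosomes, differed from shFHL2 by -1.69 and MITF by -1.10. TYR, PMEL, MLANA and GPR143 were near the floor in shNFYA, MLANA in GFP too, and TYR probe sets went in both directions. OCA2 was higher, by 2.90. Against shFHL2 the list was split, 4 higher and 6 lower, with a median of -0.15.

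Receptor kinases and their ligands went both ways, 5 higher and 7 lower. Beside AXL and HGF, EPHA2 rose by 1.60 and ERBB3 fell by 0.77; EGFR was under log2 4 in both groups, at means of 2.20 and 3.86. MET, IGF1R, FGFR1 and FGF2 had probe sets in both directions, and with the probe set of largest variance the count against GFP was 7 higher and 5 lower. Against shFHL2, 0 of the 12 were higher and 6 lower (median -0.33); EPHA2 differed there by -0.91. Of 14 genes that report MAP kinase activity, 9 were higher and 5 lower (median 0.58): EGR1 rose by 2.89 and DUSP5 by 2.17, while SPRY4, a feedback inhibitor, fell by 3.06 and ETV4 by 1.49. Against shFHL2 this list was 5 higher and 7 lower (median -0.07), with EGR1 not passing (0.07, adjusted p = 0.0733), DUSP5 0.68 higher, and SPRY4 and ETV4 lower (-0.96 and -1.16). In the shFHL2 arrays 9 were higher and 4 lower than GFP.

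Targets of YAP and TEAD were lower in 8 of 12 cases against GFP and in 9 of 12 against shFHL2, with medians of -0.36 and -0.75. CCN1, a secreted matrix protein, read 11.38, 11.41 and 11.40 in GFP and 9.12, 9.07 and 9.13 in shNFYA (-2.29), with a mean of 10.47 in shFHL2 (-1.37 between the arms). CCN2 differed by -3.25 from GFP and -1.23 from shFHL2, and TGFB2 fell to a mean of 3.90, near the floor. AJUBA, LATS2, NT5E and TEAD1 had probe sets in both directions against GFP. With the mean of all probe sets 5 were higher and 5 lower than GFP, NT5E and TEAD1 turning to 1.54 and 0.61, and 2 were higher and 8 lower than shFHL2. In the shFHL2 arrays 7 of the list were higher and 3 lower than GFP.

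Of 27 glycolysis and hypoxia genes, 19 were lower and 6 higher than GFP, with a median of -0.52, and of the 16 glycolytic enzymes 14 were lower and 1 higher. HK1, a hexokinase, read 12.10, 12.28 and 12.29 in GFP and 9.82, 9.86 and 10.00 in shNFYA (-2.33). PFKFB3 and PFKFB4, which make the activator of phosphofructokinase, fell by 2.50 and 2.21 and were also below shFHL2 (-0.99 and -1.14). ADM, a hypoxia-responsive hormone, fell by 1.81 and was -1.59 from shFHL2. SLC2A1, the glucose transporter GLUT1, rose by 3.05, from 5.10, 4.75 and 4.70 to 8.01, 7.70 and 8.0, and stood 0.55 above shFHL2. PGK1, ENO1 and PKM had probe sets in both directions. Against shFHL2 the 27 were 7 higher and 14 lower (median -0.12), and the 16 enzymes 3 higher and 8 lower.

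Markers of the line and of other cell types were read in the same arrays. Of 9 melanoma markers, 6 were lower and 2 higher; SOX10, which defines the lineage, read 12.75, 12.79 and 12.74 in GFP and 12.65, 12.78 and 12.75 in shNFYA, although its other probe set differed by -1.17. MIA differed by -0.46, MCAM by 0.46 and CSPG4 by 0.10 with probe sets in both directions, S100B fell from a mean of 13.33 to 10.02, and MLANA was near the floor in both groups. Against shFHL2, 2 melanoma markers were higher and 4 lower. Of 11 epithelial markers 5 were tested and all 5 were higher, KRT7, KRT14 and KRT8 from under log2 4 in GFP to means of 5.26, 5.08 and 4.78; the mean of the list ran from 4.88 to 4.97 over the GFP arrays and from 6.45 to 6.78 over the shNFYA arrays. In the shFHL2 arrays all 5 were above GFP too, with list means of 6.47 to 6.58, and the median difference between the arms was 0.05. Of 5 fibroblast markers tested, 4 were lower and 1 higher, with list means of 7.55 to 7.58 and 5.36 to 5.50; the shFHL2 arrays had the same counts against GFP and list means of 5.51 to 5.56, and between the arms 1 marker was lower (PDGFRA, -0.47). PTPRC, which defines blood cells, was at the floor in both groups, while LYZ rose from a mean of 3.74 to 9.40 and read a mean of 9.45 in shFHL2. KDR was the endothelial marker tested and fell by 0.96, and was -1.72 from shFHL2. The part of these markers in the other results was not tested.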

How the data were processed

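The authors deposited log2 signals; the submitters' processing notes name GCRMA as the tool; array files and depth were not used here, and array number limits precision. Of 23416 probe sets, 20264 have 1 symbol in the platform annotation, 995 several and 2099 none; 758 of the annotated ones were left out, being under log2 4 in all but 2 or fewer of 18 arrays. Each of 10940 genes took its probe set with the highest mean. limma 3.58.1 (R 4.3.3; lmFit, eBayes with trend) fitted 6 group means to 17 arrays with 11 residual degrees of freedom, and p-values were adjusted by Benjamini-Hochberg over all genes. C32 GFP replicate 3 was dropped, being almost the mean of its group's other arrays (SD of the difference 0.00746; 0.108 or more for all other arrays; 16823 probe sets). The median SE was 0.071.

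The members and the 26 gene lists were chosen with earlier results of these data known. Named genes are the NF-Y subunits, the largest rises and falls above the floor (10 each), near it (5 each) and against shFHL2 (8 each), any CCAAT class member, and the 5 members of each other list with the smallest adjusted p; further members of those other lists were named after their values were seen.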

Additional observations from a re-analysis of the deposited data

How the results depend on the processing

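Under 22 alternative settings, all 265 values of the 14 main counts stayed within 1.5 times. NFYA kept its direction and its call, at -3.46 with the probe set of largest variance. For the CCAAT lists these counts are of members lower than GFP, also where most members were higher. The serine list reached the limit with the mean of all probe sets, from 4 to 6 lower and from 11 to 9 higher. Leaving out each array in turn gave 9299 to 9383 genes called against GFP, 3902 to 3951 at 2-fold, 7297 to 7456 called against shFHL2, and -2.16 to -1.97 for NFYA. The lower members then numbered 34 to 35 (G2/M), 13 to 14 (replication), 5 to 6 (ER), 9 to 10 (class I) and 8 to 9 (sterol). Centring each array on its median moved the median of all genes by 0.13, to 5341 higher and 4220 lower (55.9 percent higher, against 50.1), and reversed PCNA (0.04), RRM1 (0.02) and HSP90AA1 (0.03). The probe set with the largest variance reversed CDK1 (0.17), CHEK1 (-2.08), CALR (-0.24), IDI1 (2.84), HSPD1 (0.49), HSPH1 (-0.50), GLUL (-1.05), P4HA2 (-0.62), IGF1R (1.01), FGF2 (0.78), DUSP4 (0.32), SPRED1 (-0.84), PHLDA1 (0.55), AJUBA (0.26), LATS2 (-0.02), TEAD1 (1.26), PGK1 (0.04), ENO1 (0.21) and PKM (0.87), and PDIA4 against shFHL2 (0.28). The mean of all probe sets reversed IDI1 (0.68), HSPD1 (0.03), GLUL (-0.22), ALDH18A1 (-0.18), SPRED1 (-0.03), NT5E (1.54), TEAD1 (0.61), PGK1 (0.14) and CSPG4 (-0.08), and PDIA4 against shFHL2 (0.06). These genes have probe sets of differing direction; the cause was not tested. Same-numbered GFP and shNFYA arrays deviated from their group means with correlations of -0.17, 0.00 and 0.03, and differently numbered ones from -0.19 to 0.19. These values do not set same-numbered arrays apart, and they cannot show whether the arrays were paired. With the replicate block 4743 genes were higher and 4722 lower. Signals near the floor limit the size of differences there.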

Other observations

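Genes of the p53 response were split in shNFYA against GFP, with 6 of 17 tested higher and 9 lower, and against shFHL2 with 8 higher and 5 lower. GDF15, a secreted stress cytokine, read 14.57, 14.52 and 14.54 in GFP and 9.87, 9.88 and 9.85 in shNFYA, a difference of -4.68 with no overlap, and differed from shFHL2 by -0.69. TP53I3, a quinone oxidoreductase, and the death receptor FAS rose by 2.32 and 2.15, while SESN1, DDB2 and ZMAT3 were lower (-1.96, -1.36 and -1.28). CDKN1A (p21) did not pass against GFP (-0.08, limma adjusted p = 0.0898) and was 0.54 higher than in shFHL2.

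Interferon-stimulated genes were higher in 10 of 16 cases and lower in 4 against GFP, and higher in 8 and lower in 6 against shFHL2 (median 0.18). In the shFHL2 arrays 9 were higher and 5 lower than GFP. ISG20, an exonuclease, read 9.83, 9.91 and 9.94 in GFP and 13.34, 13.21 and 13.31 in shNFYA, a rise of 3.39, and stood 0.14 above shFHL2. IFITM1, a membrane protein that restricts viral entry, read 10.45, 10.33 and 10.38 in GFP and 4.47, 4.26 and 4.52 in shNFYA (-5.97), and differed from shFHL2 by -2.75. ISG15, a ubiquitin-like modifier, rose by 1.55, and OAS1 stood 1.19 above GFP and 1.36 above shFHL2.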
